A study of Mus musculus with 13 samples.

Results

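The enzymes that break down the branched-chain amino acids leucine, isoleucine and valine were followed here in the gastrocnemius muscle through 10 genes, taken by symbol from the rows of the normalized count table. The genes were Bcat2, Bckdha, Bckdhb, Dbt, Bckdk, Ppm1k, Hibch, Hibadh, Ivd and Mccc1, out of 21868 genes measured. All 10 had a mean normalized count of at least 10 over the mice, as did 12303 genes in all, so every one of them entered the tests. RNA came from 13 obese male mice, C57BL/6 by the labels and of the C57BL/6N substrain by the study's text, that entered the study at 7 weeks of age, were acclimatized for 1 week, ate a diet with 60% of its energy from fat for 15 to 17 weeks, and were then moved to standard chow for the 3 weeks of treatment. Vehicle-treated mice (n = 5, mice 1 to 5) received phosphate-buffered saline and a placebo. Semaglutide-treated mice (n = 5, mice 13 to 17) received the GLP-1 receptor agonist semaglutide at 30 nM/kg per day by intraperitoneal injection with a placebo. Semaglutide + ketone ester-treated mice (n = 3, mice 19, 21 and 22) received the same semaglutide together with drinking water that held a ketone ester at 0.114 g/mL. The high-fat feeding and the return to chow were thus shared by all groups, and no group received the ketone ester alone. Comparing the semaglutide groups with each other gives the difference seen when the ketone ester is added to semaglutide. Without a group on the ester alone, an altered effect of semaglutide and a separate effect of the ester cannot be told apart.

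In muscle, BCAT2, the mitochondrial branched-chain aminotransferase, takes the amino group off all of these amino acids and leaves branched-chain ketoacids. The branched-chain ketoacid dehydrogenase complex then carries out the committed, irreversible step, with an E1 component made of an alpha chain (Bckdha) and a beta chain (Bckdhb), an E2 core (Dbt) and a shared E3. Its kinase BCKDK phosphorylates the E1 alpha chain and turns the complex off, and its phosphatase PPM1K removes the phosphate and turns it on. After this step the routes divide: HIBCH and HIBADH act on the valine route, and IVD and MCCC1 on the leucine route. Skeletal muscle is known as a main site of the first step, since the liver holds little BCAT2.

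Between 15319471 and 23498162 reads per mouse were counted on genes. Libraries from vehicle-treated mice held 15621189 to 17101549 reads and those from semaglutide + ketone ester-treated mice 16149274 to 17175998. The 4 muscle fibre markers summed to between 805975 and 1943614 normalized counts in every mouse, as fits the labelled tissue. Mouse 13 stood apart from the other semaglutide-treated mice, with -9.12 on the first principal component of all tested genes against 31.8 to 52.5 in mice 14 to 17 and -24.5 to -12.8 in vehicle-treated mice. Results were therefore also computed without mouse 13. In whole muscle, fewer cells of a type and less RNA per cell cannot be told apart.

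Genes of the set lie on chromosomes 1, 2, 3, 6, 7 and 9. In the GRCm38 (mm10) build with GENCODE vM21, Bckdk spans chr7:127904082-127910221 on the plus strand, Bcat2 chr7:45570153-45589711 on the plus strand and Bckdha chr7:25629946-25658981 on the minus strand. Bckdhb is at chr9:83925145-84124240 (plus), Ivd at chr2:118861954-118882909 (plus), Dbt at chr3:116513070-116549981 (plus) and Mccc1 at chr3:35959312-36000678 (minus). Ppm1k is at chr6:57506502-57535468 (minus), Hibadh at chr6:52546228-52640389 (minus) and Hibch at chr1:52844929-52920986 (plus). Of the 59-base words in all their annotated transcripts, at most 3.33% occurred in another gene's transcripts (Bckdhb). B3gnt8 overlaps Bckdha on the opposite strand. Its group means were 16.1, 9.77 and 12.9 normalized counts under vehicle, semaglutide and semaglutide + ketone ester, small beside the Bckdha values given below.

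Promoter sequences are shown for Bckdhb, which differed in one direction between the groups, and for Bckdk and Bcat2, which differed in the other. They are the 250 bases before the start site, 5′ to 3′ on the gene's own strand, from RefSeq on GRCm38.p6, where 9 of the 10 genes had an entry. Dbt had none. Where a gene has several listed starts, the window is that of the first. Capitals mark a GC box (GGGCGG) or a CACCC box (CACCC), read on both strands, both known binding sequences of the Sp and Krüppel-like families of zinc-finger factors, to which KLF15 belongs. The letters were chosen with the results known.
Bckdhb, chr9:83924887-83925136: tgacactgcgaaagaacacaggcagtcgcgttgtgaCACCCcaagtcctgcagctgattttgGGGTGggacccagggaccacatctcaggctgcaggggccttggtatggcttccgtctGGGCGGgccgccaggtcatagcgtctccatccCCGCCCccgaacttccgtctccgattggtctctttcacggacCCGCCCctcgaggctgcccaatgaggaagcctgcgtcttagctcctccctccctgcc
Bckdk, chr7:127903823-127904072: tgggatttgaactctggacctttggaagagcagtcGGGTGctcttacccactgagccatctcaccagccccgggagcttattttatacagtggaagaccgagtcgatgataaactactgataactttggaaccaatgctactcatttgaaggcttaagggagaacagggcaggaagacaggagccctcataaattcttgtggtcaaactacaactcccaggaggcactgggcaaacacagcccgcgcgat
Bcat2, chr7:45569903-45570152: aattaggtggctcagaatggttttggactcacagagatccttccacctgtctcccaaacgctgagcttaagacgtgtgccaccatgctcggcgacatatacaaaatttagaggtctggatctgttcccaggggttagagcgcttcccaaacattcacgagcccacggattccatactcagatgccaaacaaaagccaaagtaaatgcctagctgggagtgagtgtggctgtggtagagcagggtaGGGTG

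The Bckdhb window held 3 GC boxes and 2 CACCC boxes, at 63.2% G and C. The Bckdk and Bcat2 windows each held 1 CACCC box and no GC box, at 50% and 50.4% G and C. A window of Ivd also held 1 CACCC box and no GC box, and that of Bckdha held neither. Among 32851 such windows of all genes, 32.7% held a GC box and 52.0% a CACCC box, and the median content of G and C was 52.4%. Of the 9 genes with a window, 5 held a GC box (Bckdhb, Ppm1k, Hibch, Hibadh and Mccc1) and 6 a CACCC box (Bcat2, Bckdhb, Bckdk, Hibadh, Ivd and Mccc1). The estrogen-related receptor element TCAAGGTCA was in 0.387% of all windows and the E-box CACGTG in 6.02%, and neither was in a window of these genes. The further listed starts of Bckdhb (window chr9:83948531-83948780, 36.4% G and C) and of Bcat2 (window chr7:45571029-45571278) had neither box. A match is a description of letters and not a bound site.

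Levels between genes were compared as normalized counts per kilobase of principal transcript. In vehicle-treated mice the order ran from Bckdha (mean of 1326 per kilobase) and Hibadh (1200.3) through Bckdk (819), Ivd (616) and Bcat2 (515) to Hibch (304), Mccc1 (262), Bckdhb (206), Dbt (133) and Ppm1k (45.1). Of neighbours in this order, only Bckdha and Hibadh had overlapping ranges over the 5 vehicle-treated mice. The kinase gene was thus far above the phosphatase gene per length, and the E1 alpha gene far above the E1 beta gene.

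**Figure D1:**
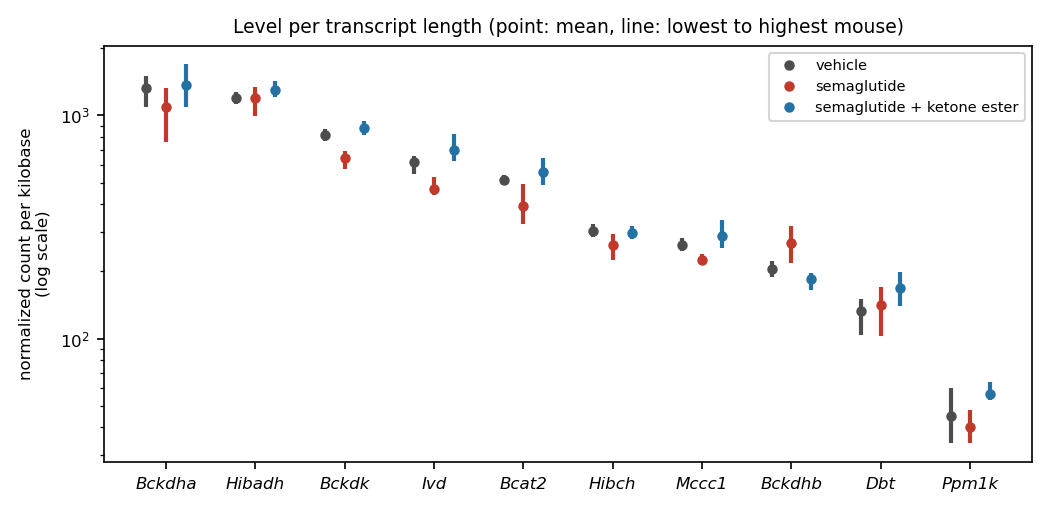
Normalized counts per kilobase of principal transcript (vertical axis, log scale) of the 10 genes, ordered by the vehicle mean. Points are group means and lines run from the lowest to the highest mouse (n = 5 vehicle, 5 semaglutide, 3 semaglutide + ketone ester). Bckdha has the highest vehicle mean (1326) and Ppm1k the lowest (45.1).

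Differences were tested with limma on log2(normalized count + 1), with p-values adjusted by the Benjamini-Hochberg method over the 12303 genes. Under semaglutide, Bcat2 (-0.40 on the log2 scale), Bckdk (-0.35) and Ivd (-0.40) were lower than under vehicle and Bckdhb was higher (0.37). Under semaglutide + ketone ester, Bcat2 (0.50), Bckdk (0.45), Ivd (0.58) and Mccc1 (0.33) were higher than under semaglutide alone and Bckdhb was lower (-0.52). None of the 10 genes passed the test between semaglutide + ketone ester and vehicle. Both of the first comparisons use the same semaglutide-treated mice, so their signs are not independent of each other.

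**Figure D2:**
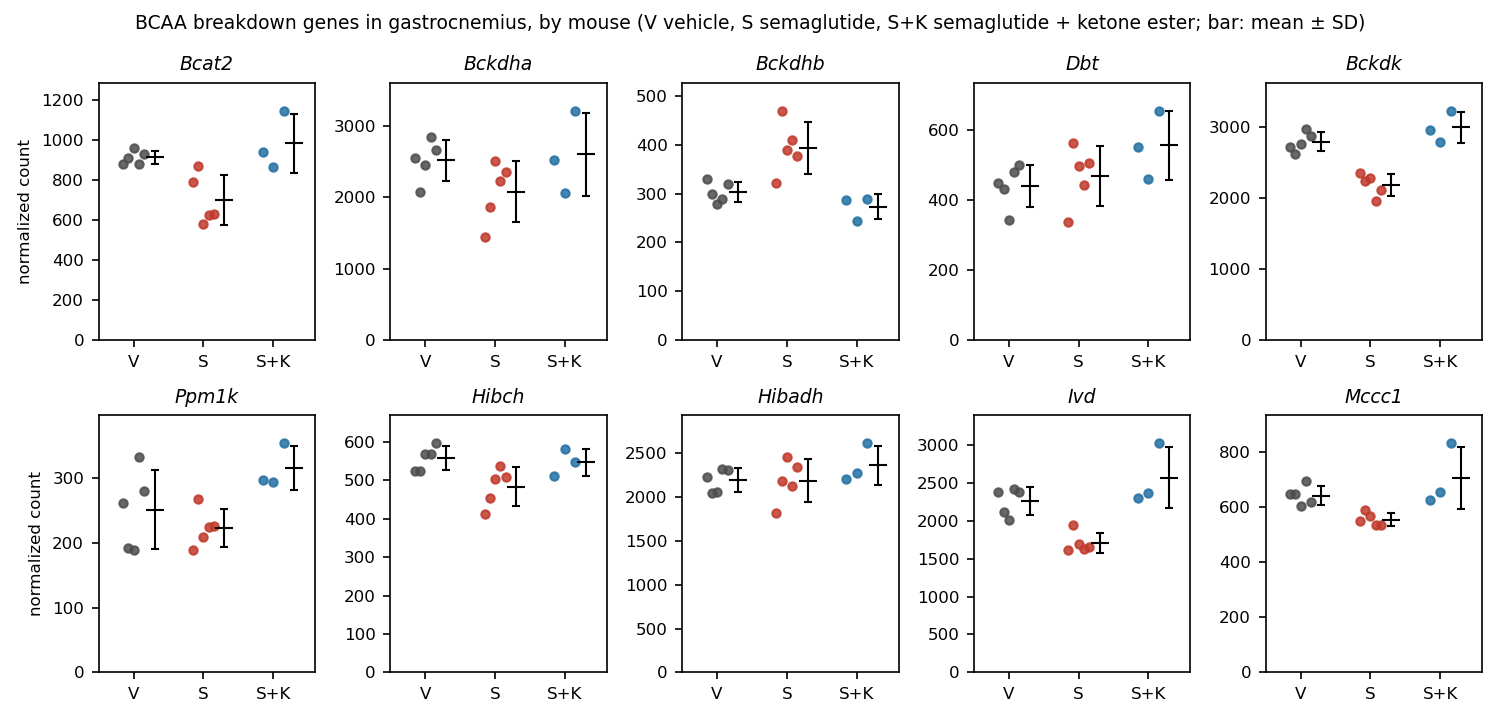
Normalized counts of each of the 10 genes (vertical axis, from 0) in each mouse, by group: V, vehicle (n = 5), S, semaglutide (n = 5), S+K, semaglutide + ketone ester (n = 3). Points are mice and bars the mean ± SD. In Bckdk and Ivd every semaglutide-treated mouse lies below every other mouse, and in Bckdhb the semaglutide mean of 393 is the highest of the groups.

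Bcat2 catalyses the reversible first step. It measured 882, 913, 959, 880 and 933 normalized counts in mice 1 to 5 (vehicle), 789, 872, 580, 626 and 630 in mice 13 to 17 (semaglutide), and 941, 864 and 1148 in mice 19, 21 and 22 (semaglutide + ketone ester). Every semaglutide-treated mouse was below every vehicle-treated mouse, with mice 13 and 14 nearest to them. The means were 913 ± 33.6 (SD, n = 5), 700 ± 125 (SD, n = 5) and 984 ± 147 (SD, n = 3). Semaglutide differed from vehicle by -0.40 on the log2 scale (SE 0.12, limma adjusted p = 0.0296), so that it fell by 24.3%. Semaglutide + ketone ester exceeded semaglutide by 0.50 (SE 0.14, limma adjusted p = 0.0273), although mouse 21 at 864 lay within the semaglutide range. The fall passed the test in 6 of the 13 fits that each leave out 1 mouse, and was lost without mouse 2, 3, 4, 5, 15, 16 or 17, with limma adjusted p-values up to 0.0726. The second difference passed in 9 of the 13 fits and was lost without mouse 15, 17, 19 or 22, with limma adjusted p-values up to 0.134.

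Of the E1 chains, the beta gene passed the test and the alpha gene did not. Bckdha, the alpha chain that carries the regulatory phosphate, measured 2553, 2079, 2450, 2845 and 2659 in vehicle-treated mice, 1444, 1862, 2512, 2224 and 2351 in semaglutide-treated mice, and 2523, 2066 and 3213 in semaglutide + ketone ester-treated mice. The groups overlapped, and mice 13 and 14 were the lowest of all. Its difference under semaglutide was -0.30 (95% interval -0.65 to 0.06, limma adjusted p = 0.206), and the step to semaglutide + ketone ester was 0.33 (95% interval -0.08 to 0.74, limma adjusted p = 0.241). Without mouse 13 the differences were -0.17 and 0.20.

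Bckdhb, the beta chain, was the only gene of the 10 to pass the test as higher under semaglutide. Its normalized counts were 330, 299, 278, 289 and 319 under vehicle, 321, 470, 390, 410 and 376 under semaglutide, and 287, 244 and 288 under semaglutide + ketone ester. Of the semaglutide-treated mice, 4 of 5 were above every vehicle-treated mouse, and mouse 13 was not. All 3 semaglutide + ketone ester-treated mice were below every semaglutide-treated mouse. Means were 303 ± 21.0 (SD, n = 5), 393 ± 54.0 (SD, n = 5) and 273 ± 25.1 (SD, n = 3). The rise was 0.37 (SE 0.10, limma adjusted p = 0.0228), or 29.0%, and the difference of semaglutide + ketone ester from semaglutide was -0.52 (SE 0.12, limma adjusted p = 0.0124), or -30.2%. Without mouse 13 they were 0.44 and -0.59. The rise lost its call without mouse 3 or mouse 4 (limma adjusted p = 0.0548 and 0.0532), and the fall without mouse 21 (limma adjusted p = 0.0685).

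The ratio of Bckdha to Bckdhb reads within a mouse does not depend on how libraries were scaled. On the log2 scale it was 2.95, 2.80, 3.14, 3.30 and 3.06 under vehicle, 2.17, 1.99, 2.69, 2.44 and 2.64 under semaglutide, and 3.14, 3.08 and 3.48 under semaglutide + ketone ester. All semaglutide-treated mice, mouse 13 included, were below all other mice. As a ratio of reads, the geometric means were 8.28, 5.23 and 9.40, so that the ratio under semaglutide was 0.631 of that under vehicle, and that under semaglutide + ketone ester was 1.80 times that under semaglutide. These ratios were described without a test, because their genes were chosen with the results known. Bckdhb had passed as higher under semaglutide and Bckdha was lower without passing, so the separation of their ratio is not separate support. The ratios of Bckdk to Bckdha and of Hibch to Hibadh, not shown, overlapped between the groups.

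**Figure D3:**
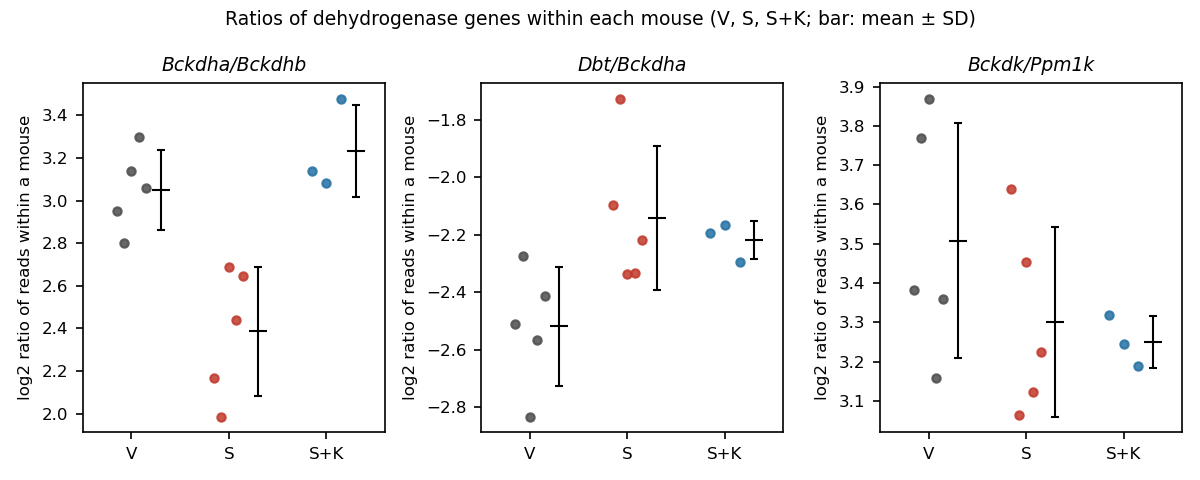
Log2 ratio of reads within each mouse (vertical axis, not from 0) for Bckdha to Bckdhb, Dbt to Bckdha and Bckdk to Ppm1k, by group (V, vehicle, S, semaglutide, S+K, semaglutide + ketone ester). Points are mice and bars the mean ± SD. Only in the Bckdha to Bckdhb panel do the semaglutide-treated mice (1.99 to 2.69) lie apart from both other groups.

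Dbt encodes the E2 core, which passes the acyl group to coenzyme A. It ranged from 344 to 499 under vehicle, from 338 to 562 under semaglutide and from 460 to 655 under semaglutide + ketone ester, and all groups overlapped. No difference passed the test. The interval of semaglutide minus vehicle was -0.25 to 0.41, and that of semaglutide + ketone ester minus vehicle was -0.05 to 0.71 (limma adjusted p = 0.562). In vehicle-treated mice the log2 ratio of Dbt to Bckdha reads was -2.52 ± 0.21 (SD, n = 5), against -2.14 ± 0.25 (SD, n = 5) with semaglutide alone and -2.22 ± 0.068 (SD, n = 3) in those that also had the ketone ester.

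Of the pair that switches the complex, the kinase gene differed and the phosphatase gene did not pass. Bckdk measured 2720, 2624, 2766, 2970 and 2869 under vehicle, 2352, 2235, 2287, 1955 and 2112 under semaglutide, and 2957, 2794 and 3231 under semaglutide + ketone ester. No semaglutide-treated mouse reached the lowest mouse of either other group. Its means were 2789.9 ± 134 (SD, n = 5), 2188 ± 157 (SD, n = 5) and 2994 ± 221 (SD, n = 3). The fall under semaglutide was -0.35 (SE 0.076, limma adjusted p = 0.00699), or -21.7%, and the rise from semaglutide to semaglutide + ketone ester was 0.45 (SE 0.088, limma adjusted p = 0.00605), or 36.9%. Both calls stood in all 13 fits that leave out 1 mouse.

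Ppm1k, the phosphatase gene, had 261, 193, 189, 333 and 279 normalized counts under vehicle, 189, 267, 209, 224 and 226 under semaglutide, and 296, 295 and 355 under semaglutide + ketone ester. Vehicle-treated mice spread from the level of the lowest semaglutide-treated mouse to above the highest, while all 3 semaglutide + ketone ester-treated mice were above every semaglutide-treated mouse. The differences were -0.15 (95% interval -0.49 to 0.20, limma adjusted p = 0.532) and 0.50 (95% interval 0.11 to 0.90, limma adjusted p = 0.0718), neither past the threshold. With DESeq2 on the recovered reads the second had an adjusted p of 0.0393. In vehicle-treated mice the log2 ratio of Bckdk to Ppm1k reads was 3.51 ± 0.30 (SD, n = 5), against 3.30 ± 0.24 (SD, n = 5) with semaglutide alone and 3.25 ± 0.066 (SD, n = 3) in those that also had the ketone ester, with overlapping ranges. As ratios of reads these are 11.4, 9.86 and 9.52.

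On the leucine route, Ivd encodes isovaleryl-CoA dehydrogenase, which acts on the first product past the complex. It measured 2381, 2109, 2005, 2416 and 2379 under vehicle, 1615, 1944, 1699.5, 1625 and 1657 under semaglutide, and 2302, 2364 and 3027 under semaglutide + ketone ester. All semaglutide-treated mice were below all other mice, and mouse 22 was well above the rest of its group. Means were 2258 ± 188 (SD, n = 5), 1708 ± 136 (SD, n = 5) and 2564 ± 402 (SD, n = 3). The fall was -0.40 (SE 0.098, limma adjusted p = 0.0124), or -24.3%, and the rise was 0.58 (SE 0.11, limma adjusted p = 0.00619), or 49.3%. Both calls stood in all 13 fits that leave out 1 mouse, and without mouse 22 the rise was 0.45 (limma adjusted p = 0.0376).

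Mccc1 encodes the biotin-carrying subunit of methylcrotonyl-CoA carboxylase, which takes up the product of IVD. Its normalized counts were 648, 646, 604, 694 and 621 under vehicle, 549, 588, 568, 535 and 536 under semaglutide, and 625, 657 and 834 under semaglutide + ketone ester. The semaglutide-treated mice were again below all others. The difference from vehicle, -0.21 (SE 0.086), did not pass (limma adjusted p = 0.0934). The rise from semaglutide to semaglutide + ketone ester, 0.33 (SE 0.099), did pass (limma adjusted p = 0.0359), but in only 6 of the 13 fits that leave out 1 mouse. It was lost without mouse 1, 2, 15, 16, 17, 21 or 22, and without mouse 22 it was 0.21 (limma adjusted p = 0.172).

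Neither Hibch nor Hibadh, both of the valine route, passed a test. Hibch, whose enzyme frees hydroxyisobutyrate from coenzyme A, had means of 557 ± 31.4 (SD, n = 5), 483 ± 50.2 (SD, n = 5) and 547 ± 35.4 (SD, n = 3), and 4 of 5 semaglutide-treated mice were below every vehicle-treated mouse. Its difference under semaglutide was -0.21 (95% interval -0.40 to -0.02, limma adjusted p = 0.0956). Hibadh, whose enzyme oxidizes hydroxyisobutyrate, had means of 2190.5 ± 133 (SD, n = 5), 2184 ± 244 (SD, n = 5) and 2361 ± 223 (SD, n = 3). Its difference under semaglutide was -0.01 (95% interval -0.21 to 0.19, limma adjusted p = 0.952), the smallest of the 10 in size, and it turned positive under 5 of the 12 other settings.

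**Figure D4:**
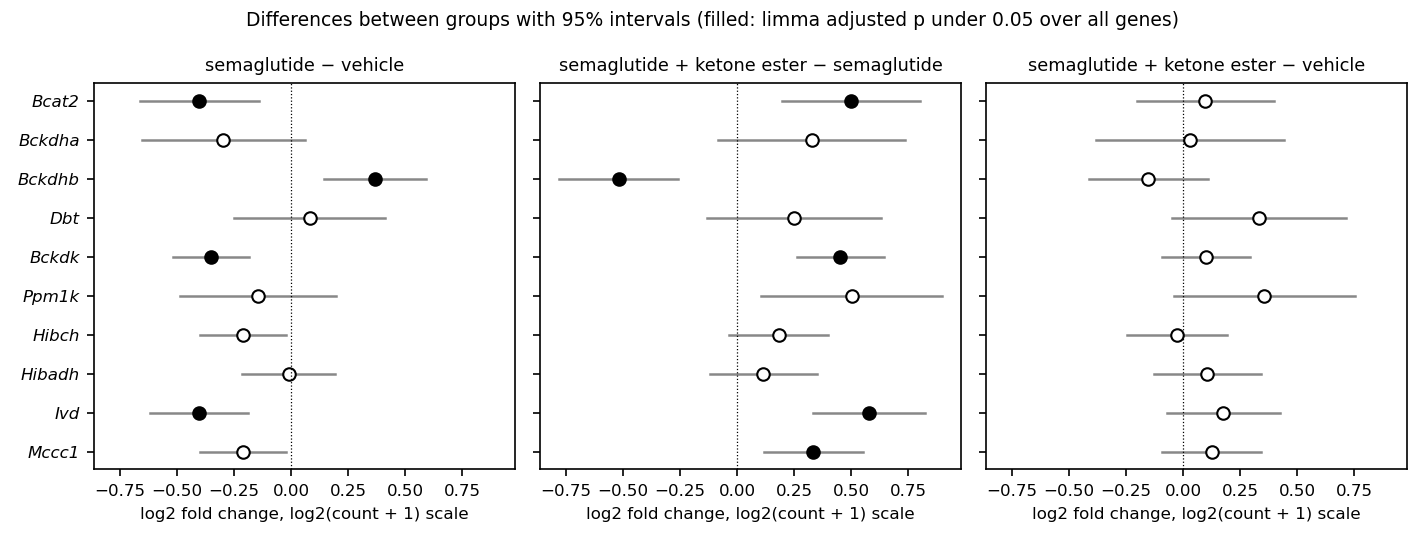
Log2 fold change of each gene with its 95% interval (horizontal axis, log2(normalized count + 1) scale) in the 3 comparisons. Filled points have a limma adjusted p under 0.05. In semaglutide minus vehicle 4 points are filled, in semaglutide + ketone ester minus semaglutide 5, and in semaglutide + ketone ester minus vehicle none.

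Counted over the set, 1 gene was higher and 3 were lower in semaglutide against vehicle, 40% of the 10, where 25.1% of all genes tested passed (11.9% higher, 13.2% lower). In semaglutide + ketone ester against semaglutide, 4 were higher and 1 was lower, 50% of the 10, where 18.4% of all genes passed (9.09% higher, 9.3% lower). Median log2 differences of the set were -0.21 and 0.33, beside medians near 0 over all genes. Across the 3 groups by the limma F test, 4 genes passed (Bcat2, Bckdhb, Bckdk and Ivd), where 23.8% of all genes did, and Mccc1 had a limma adjusted p of 0.0537. Without mouse 13 the pairwise counts were the same, where 36.2% and 32.2% of all genes passed. Of the genes called over the whole table, 47.3% were higher in the first comparison and 49.4% in the second. With the columns rescaled to equal totals, which moved the median of all genes to 0.17 and -0.24 and these shares to 77.8% and 14.6%, 1 of the 10 genes was higher (Bckdhb) and 0 were lower under semaglutide, and 1 was higher (Ivd) and 1 lower (Bckdhb) in semaglutide + ketone ester against semaglutide. In that setting 34.1% of all genes passed in each of these comparisons. They were 3262 higher and 929 lower in the first, and 611 higher and 3587 lower in the second. Bckdk was then at -0.18 and 0.22 (limma adjusted p = 0.0721 and 0.0611) and Ivd at -0.23 and 0.34 (limma adjusted p = 0.103 and 0.0414). With the moved medians subtracted, these differences were -0.35 and 0.45 for Bckdk and -0.40 and 0.58 for Ivd. Subtracting them undoes the rescaling, because the medians before it were near 0, so these values repeat the first fit by construction.

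By ranges, the semaglutide-treated mice were all below the vehicle-treated mice in 4 genes (Bcat2, Bckdk, Ivd and Mccc1), where 7.45% of all genes did so, and all above them in 0, where 7.22% did (14.7% in either direction). The semaglutide + ketone ester-treated mice were all above the semaglutide-treated mice in 4 genes (Bckdk, Ppm1k, Ivd and Mccc1; 9.96% of all genes) and all below in 1 (Bckdhb; 10.2%), against 20.1% of all genes in either direction. Per gene and pair of groups, two-sided exact permutation tests gave the smallest p they allow, 0.00794 for 5 against 5, for Bcat2, Bckdk, Ivd and Mccc1 in semaglutide against vehicle. Of 30 such exact tests, 11 had p under 0.05, and 0 did after adjustment over the 30, where the lowest was 0.0536. Mouse 13 had the lowest count of all 13 mice in 6 of the 10 genes, and mouse 22 the highest in 8.

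Semaglutide + ketone ester-treated and vehicle-treated mice differed in 0 of the 10 genes, where 0.236% of all genes passed (29 genes; 0.0732% higher and 0.163% lower). At an unadjusted p under 0.05 the count was also 0, and edgeR and DESeq2 called 0 as well. Log2 differences ran from -0.15 in Bckdhb (95% interval -0.41 to 0.11) to 0.36 in Ppm1k (95% interval -0.04 to 0.75), with a median of 0.10. For Bcat2 the difference was 0.10 (95% interval -0.20 to 0.40), for Bckdk 0.10 (-0.09 to 0.29) and for Ivd 0.18 (-0.07 to 0.42). The intervals of Bckdha, Dbt, Ppm1k and Ivd reached above 0.40, the size of the Bcat2 and Ivd falls under semaglutide, so they include a difference of that size, and that of Bckdhb reached below -0.40. By ranges, 0 of the 10 genes were apart, where 11.3% of all genes were (5.45% higher, 5.88% lower).

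Profiles over the mice were compared by the root-mean-square difference of log2 counts from the vehicle mean, over the 13 mice. Within the set the nearest pairs were Bckdk and Ivd (0.117), Bckdk and Mccc1 (0.124) and Ivd and Mccc1 (0.138). The farthest were Bcat2 and Bckdhb (0.525) and Bckdhb and Ivd (0.516). Over all genes, the nearest to Ivd were the ATP synthase subunit genes Atp5h (0.072) and Atp5b (0.074), and to Bckdk they were Coq5 of coenzyme Q synthesis (0.060) and Fkbp3 (0.068). Nearest to Bcat2 were Uqcr10, of respiratory complex III, and Cav1 (both 0.105). Bckdhb was nearest to the proton pump subunit gene Atp6v0d1 (0.087) and to Dennd5a (0.089). For the others they were Hsdl2 and Slc25a42 (Bckdha), Stard7 and Cyp39a1 (Dbt), Ube2t and Hspa2 (Ppm1k), Afg3l2 and Echdc1 (Hibch), Klhl9 and Dnajc28 (Hibadh) and Tcaim and Hist1h2bc (Mccc1), at 0.054 to 0.166.

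Other genes of the same breakdown routes were counted from a fixed list. Of 18 tested, 8 were lower and 1 was higher under semaglutide, with a median of -0.26, where 13.2% and 11.9% of all genes were. In semaglutide + ketone ester against semaglutide, 5 were higher and 1 was lower, with a median of 0.26, where 9.09% and 9.3% of all genes were. The 5 higher genes became 2 without mouse 22, 3 without mouse 21, 2 with only the groups compared, 1 with equal totals, 8 with DESeq2 and 9 with quantile normalization, and the 8 lower genes became 5 with equal totals and 5 without mouse 2 or without mouse 16. With equal totals, 929 of all 12303 genes were lower under semaglutide and 611 were higher in semaglutide + ketone ester against semaglutide. For the other settings the share of all genes is not given beside these counts. The number of all genes called also moved with the setting, as the closing section gives. The changes in these counts are therefore not read as a result about this list. The lower genes of the 18 included Pccb, a propionyl-CoA carboxylase subunit (-0.49, SE 0.080, limma adjusted p = 0.00172), Acad8, the isobutyryl-CoA dehydrogenase of valine breakdown (-0.51, SE 0.088, limma adjusted p = 0.00201), and Mmab of the cobalamin pathway (-0.62, SE 0.14, limma adjusted p = 0.00814). Mcee, which racemizes methylmalonyl-CoA, was at -0.42 (limma adjusted p = 0.0104) and Dld, the E3 shared by the dehydrogenase complexes, at -0.41 (limma adjusted p = 0.00504). All but Mcee also passed in the other direction in semaglutide + ketone ester against semaglutide, at 0.41 to 0.55, where Mcee was at 0.33 (limma adjusted p = 0.0646). The 1 gene that passed as higher under semaglutide was Slc25a44, the mitochondrial carrier that brings branched-chain amino acids to BCAT2, at 0.34 (SE 0.089, limma adjusted p = 0.0177) and then -0.33 (SE 0.10, limma adjusted p = 0.0421). Its second call stood in 2 of the 13 fits that leave out 1 mouse, those without mouse 13 or mouse 16, with limma adjusted p-values up to 0.172, and was lost without the filter on low values, with quantile normalization and with only the groups compared. Those of Mmab and Dld stood in 8 and 11 of the 13, and were lost without mouse 14, 17, 19, 21 or 22 for Mmab and without mouse 21 or 22 for Dld. Against vehicle, semaglutide + ketone ester changed 0 of the 18, from -0.25 in Pcca to 0.23 in Mmut. Bcat1, the cytosolic aminotransferase, was too low to test.

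The pyruvate and oxoglutarate dehydrogenase complexes are built like the branched-chain complex and share its E3. Of their 6 genes, 5 were lower under semaglutide, with a median of -0.52, where 13.2% of all genes were lower. In semaglutide + ketone ester against semaglutide 5 were higher, with a median of 0.62, where 9.09% of all genes were higher. Dlat, the E2 of the pyruvate complex, was at -0.73 and 0.87 (limma adjusted p = 0.00137 and 0.00246). Both E1 chain genes of that complex were lower under semaglutide, Pdha1 at -0.53 and Pdhb at -0.51 (limma adjusted p = 0.00553 and 0.00649). Ogdh was at -0.20 (limma adjusted p = 0.118). Of the 7 kinases and phosphatases of the pyruvate complex, 3 were lower under semaglutide, Pdk1 (-0.50, limma adjusted p = 0.0113), Pdpr (-0.53, limma adjusted p = 0.00104) and Pdp1 (-0.57, limma adjusted p = 0.0345), and 2 were higher in semaglutide + ketone ester against semaglutide, Pdp1 at 1.10 (limma adjusted p = 0.00472) and Pdpr at 0.46 (limma adjusted p = 0.00649). The fall of Pdp1 passed in 6 of the 13 fits that leave out 1 mouse. Pdk4 had the lowest fold change of the 7 under semaglutide, at -1.15, and did not pass (limma adjusted p = 0.401). Its normalized counts ran from 978 to 34233 under semaglutide, from 14647 to 21344 under vehicle and from 4938 to 11475 under semaglutide + ketone ester. The last group was at -1.19 against vehicle for Pdk4 and did not pass (limma adjusted p = 0.799).

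Of 15 tricarboxylic acid cycle genes, 14 were lower under semaglutide, with a median of -0.53, where 13.2% of all genes were lower. In semaglutide + ketone ester against semaglutide 13 were higher, with a median of 0.62, where 9.09% of all genes were higher. The span under semaglutide was from -0.78 in Idh3a (limma adjusted p = 0.000836) to -0.25 in Suclg2 (limma adjusted p = 0.0417, passed in 2 of the 13 fits that leave out 1 mouse). The median of the 10 branched-chain genes, -0.21, was nearer 0 than this. Beside these counts, mitochondrially encoded protein genes took 17.2% to 19.9% of reads under vehicle, 11.4% to 13.7% under semaglutide and 15.6% to 17.0% under semaglutide + ketone ester. Their part in the differences of the branched-chain genes was not tested.

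**Figure D5:**
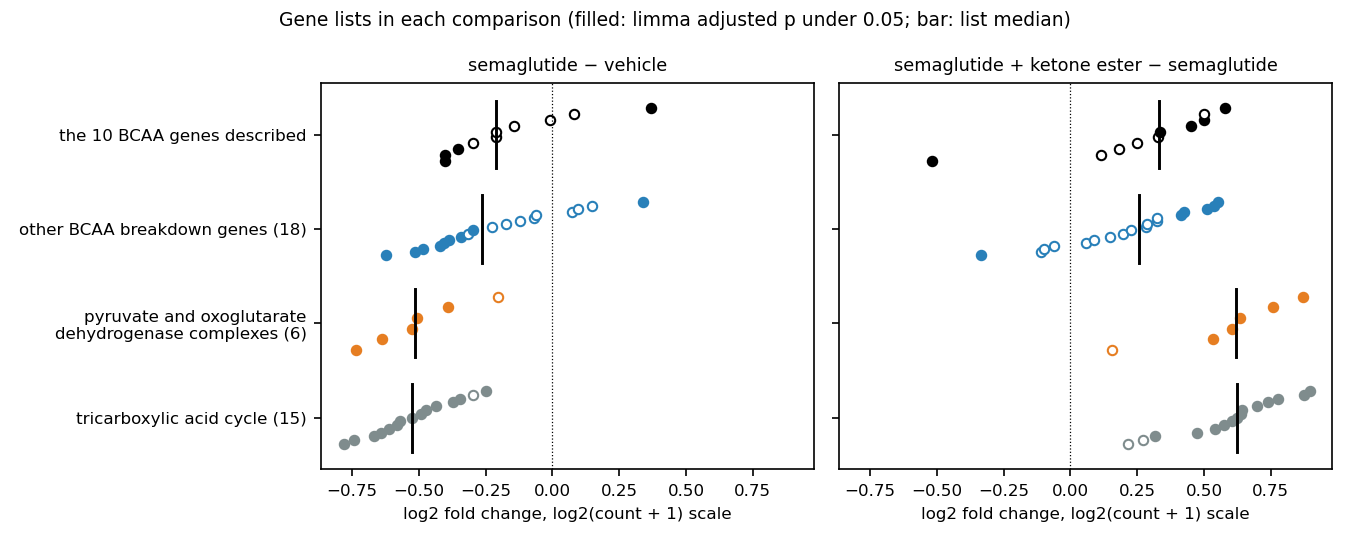
Log2 fold changes (horizontal axis, log2(normalized count + 1) scale) of single genes in 4 lists, in semaglutide minus vehicle (left) and semaglutide + ketone ester minus semaglutide (right), which share the semaglutide-treated mice. Filled points have a limma adjusted p under 0.05, and bars are list medians, which for the 10 branched-chain genes are -0.21 and 0.33 and for the tricarboxylic acid cycle -0.53 and 0.62.

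Among 7 transcription factor and coactivator genes tied to this pathway or to mitochondrial genes, Klf15, a known activator of branched-chain amino acid breakdown in muscle, measured 844, 790, 496, 672 and 616 under vehicle, 357, 1160, 1117, 961 and 1124 under semaglutide, and 510, 312 and 513 under semaglutide + ketone ester. Mice 14 to 17 were above every other mouse and mouse 13 was among the lowest, and its differences of 0.37 and -1.004 did not pass (limma adjusted p = 0.40 and 0.0662). Without mouse 13 they were 0.69 and -1.32 and both passed (limma adjusted p = 0.0115 and 0.000817). Esrra, the estrogen-related receptor alpha of mitochondrial gene control, was lower under semaglutide (-0.78, SE 0.17, limma adjusted p = 0.00713) and higher in semaglutide + ketone ester against semaglutide (0.72, SE 0.20, limma adjusted p = 0.0263), where the second call was lost without mouse 15, 17, 19, 21 or 22. Its counts were 1800, 1598, 1596, 1777 and 1727 under vehicle, 1369, 1341, 799, 798 and 800 under semaglutide, and 1580, 1433 and 1882 under semaglutide + ketone ester. Ppara was lower under semaglutide (-1.03, limma adjusted p = 0.0370), in 5 of the 13 fits that leave out 1 mouse, and Ppard higher (0.47, limma adjusted p = 0.00754). Ppard was lower again in semaglutide + ketone ester against semaglutide (-0.48, limma adjusted p = 0.0174), a call lost without mouse 21. Ppargc1a was at -0.34 under semaglutide (limma adjusted p = 0.501) and at -0.90 in semaglutide + ketone ester against semaglutide (limma adjusted p = 0.131). Against vehicle, semaglutide + ketone ester was at -1.25 for this gene and did not pass (limma adjusted p = 0.279). Its counts were 710 to 1133 under semaglutide + ketone ester, all below the 1501 to 3108 under vehicle, where 5.88% of all genes were lower without overlap.

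Some markers of muscle fibres and of other cells also differed between the groups, and others did not. Beside their counts, 13.2% of all genes were lower under semaglutide and 9.09% higher in semaglutide + ketone ester against semaglutide. Of 4 fibroblast markers, 3 were lower under semaglutide and 2 higher in semaglutide + ketone ester against semaglutide, with sums of 4236 to 10077 normalized counts under vehicle, 4484 to 5958 under semaglutide and 5920 to 9345 under semaglutide + ketone ester. Of 5 red blood cell markers, 0 passed under semaglutide and 4 were higher in semaglutide + ketone ester against semaglutide, with sums of 1356 to 2291, 50.5 to 3148 and 2849 to 5558. Among 4 muscle fibre markers, 1 was lower under semaglutide and 3 were higher in semaglutide + ketone ester against semaglutide, with sums of 1200424 to 1481801, 805975 to 1412337 and 1553958 to 1943614. None of the adipocyte, macrophage, Schwann cell or satellite cell markers passed in either comparison, and 1 of 4 endothelial markers was higher in the second. The hepatocyte marker Alb, at most 38.4 normalized counts in any mouse, was lower in the first. The part of these cells in the results was not tested.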

How the data were processed

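Total RNA of frozen gastrocnemius was extracted with TRIzol, made into Illumina Stranded mRNA libraries and sequenced on a NextSeq2000 (paired-end, 59 bases). Per the labels, DRAGEN, DESeq2 and the mm10 build were used. The counting program, its use of strand and the annotation are not given in the sources used here. The authors deposited normalized counts per gene, read here as a signal with 1 column per mouse. Every value was a whole multiple of the worth of 1 read (100% of values within 0.01 reads), so reads were recovered.

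Groups came from the treatment labels; all 13 samples carried 1 batch label. limma 3.58.1 (R 4.3.3) was fitted to log2(normalized count + 1) over 12303 of 21868 genes with a mean of at least 10, with 1 coefficient per group, Benjamini-Hochberg adjustment and a threshold of 0.05. A fold change on this scale understates the change of low genes. edgeR 4.0.16 and DESeq2 1.42.0 on recovered reads were alternatives. The limma step was tested on simulated data. Exact permutation tests were run with scipy 1.17.1. The limma p-values set a difference between group means against the spread between mice within the groups. Depth was 15319471 to 23498162 reads per mouse. The genes, lists, ratios and promoter motifs were chosen with earlier results of these data known. All 10 genes were named. From the other lists, some of the genes with the lowest or highest fold change of a list in a comparison were named. Some genes called under semaglutide among the 5 with the largest changes of their list were named as well. Klf15 and the 2 nearest profiles per gene were always named. Coordinates and transcript lengths came from GENCODE vM21, promoters from RefSeq (GRCm38.p6).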

Additional observations from a re-analysis of the deposited data

Results flagged for a closer look

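For the 10 genes and the 5 read ratios within a mouse, the vehicle and the semaglutide group of 5 mice, 30 groups in all, were examined for a mouse far from the others of its group, and 1 was found. In Ivd under semaglutide, mouse 14 stood at 1944 normalized counts, apart from the other 4 semaglutide-treated mice at 1615 to 1699.5, with a gap of 0.743 of the range of the group against a critical value of 0.71 (Dixon). Chance gives about 1 such mouse in 20 groups. The difference of Ivd between semaglutide and vehicle passed the test both with and without this mouse.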

How the results depend on the processing

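Over fits with another filter, pseudocount, scaling, weighting, prior, set of groups or tool, 339 of 360 fold changes of the 10 genes kept their direction and their side of the threshold, 11 lost a call, 1 gained one and 9 turned in direction; leaving out 1 mouse at a time, these counts were 359, 21, 1 and 9 of 390. With equal totals, the genes lower in semaglutide against vehicle went from 3 to 0, those higher in semaglutide + ketone ester against semaglutide from 4 to 1, and those across the 3 groups from 4 to 1. In that setting 34.1% of all genes passed in each of these pairwise comparisons. The share of all genes across the 3 groups in that setting is not given here. With only the 2 groups compared in the fit, those higher in semaglutide + ketone ester against semaglutide were 2 and those lower 0, with fewer mice to estimate the spread. By the criterion of the study's methods, 1 gene was called across the 3 groups (Ivd). That criterion asks for 1.5-fold between the extreme group means beside an unadjusted p. The extreme means of Ivd, 2564 under semaglutide + ketone ester and 1708 under semaglutide, were only just past it. The share of all genes that met this criterion is not given here, so the count is not set against a background. Leaving out 1 mouse gave 0 to 1 higher and 2 to 4 lower genes in semaglutide against vehicle, 2 to 4 higher and 0 to 1 lower in semaglutide + ketone ester against semaglutide, 0 to 0 in semaglutide + ketone ester against vehicle, and 3 to 5 across the groups. Without the filter on low values, which adds genes to the adjustment, Bcat2 in semaglutide against vehicle (limma adjusted p = 0.0506) and Mccc1 in semaglutide + ketone ester against semaglutide (limma adjusted p = 0.0639) lost their calls.

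Differences that turned were small and never passed the test. With equal totals these were Bckdha in semaglutide + ketone ester against vehicle (-0.032), Ppm1k in semaglutide against vehicle (0.028), Hibch (-0.054) and Hibadh (-0.12) in semaglutide + ketone ester against semaglutide, and Hibadh in semaglutide against vehicle (0.16). The last was also positive with TMM (0.0021), arrayWeights (0.077), edgeR (0.0071) and DESeq2 (0.0017). Leaving out 1 mouse, the ranges that crossed 0 were -0.018 to 0.19 for Bcat2, -0.13 to 0.19 for Bckdha, -0.073 to 0.020 for Hibch and -0.0016 to 0.21 for Mccc1 in semaglutide + ketone ester against vehicle, and -0.0049 to 0.19 for Dbt and -0.053 to 0.055 for Hibadh in semaglutide against vehicle. Apart from what the construction of a setting shows, the cause was not tested.

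Over all genes, 3084 passed in semaglutide against vehicle (4847 with arrayWeights, 2065 to 4450 leaving out 1 mouse, most without mouse 13), 2262 in semaglutide + ketone ester against semaglutide (751 with only these groups, 4198 with equal totals, 4279 with arrayWeights, 861 to 3959 leaving out 1 mouse) and 29 in semaglutide + ketone ester against vehicle (4 without the filter, 45 with a trend in the prior, chosen after seeing the data, 45 with edgeR, 171 with DESeq2, 205 with arrayWeights, 1 to 77 leaving out 1 mouse). No paired analysis was possible because the mice of the groups are different animals and share no replicate number in the labels. Limits are the 3 semaglutide + ketone ester-treated mice, the lack of a group on the ketone ester alone, and whole muscle, in which cell makeup was not measured.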
